A study of Homo sapiens with 4 samples.

Results

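The interferon-stimulated effector genes are genes whose products carry out the antiviral response of a cell. The group held 38 named genes, all found in the NCBI RefSeq gene table of GRCh38.p14, out of 20037 protein-coding genes on chromosomes 1 to 22, X and Y. They were taken by name, with no threshold on any measured value. The data are CUT&Tag of CHAF1A, a subunit of the histone chaperone CAF-1. They come from RBE, an established human cell line of intrahepatic cholangiocarcinoma, cancer of the bile ducts inside the liver. The cells received an siRNA against CHAF1A (2 samples) or a control siRNA (2 samples) with Lipofectamine 3000 and were harvested 48 hours later, and both groups had the same medium and reagent. The series title concerns NAT10, an RNA acetyltransferase that forms N4-acetylcytidine, and the silencing of transposable elements.

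In CUT&Tag an antibody guides a transposase to its target, and the cut fragments are sequenced, so that reads pile up where the target or open chromatin lets the enzyme cut. CAF-1 deposits new histones on replicating DNA. When a cell senses a virus it secretes interferon, which binds receptors on the same and neighbouring cells and activates a transcription factor complex that contains STAT2 and IRF9. This complex binds the interferon-stimulated response element (ISRE) in promoters, whose core reads GAAA, any 2 bases, and GAAA again, and turns on a large set of genes. Their products bind viral RNA (the IFIT and OAS families), block entry (the IFITM family), trap virus at the membrane (BST2) or tag proteins (ISG15). Many lie in clusters of related copies.

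For each group 1 list of peaks was analysed, so no difference between the lists has a replicate check and no test between them is given. A peak is a stretch of the genome where the authors' peak caller found more reads than its local background, at a p of 1e-05. Its fold enrichment, a linear ratio, and the −log10 q of its summit are the authors' values. The number of reads at each summit was solved from the fold and p, and its 95% exact Poisson interval covers counting error only. On the kept chromosomes the lists held 97653 peaks with CHAF1A siRNA and 76313 with control siRNA. The genome background was 8.49 reads per position in the CHAF1A siRNA list and 6.34 in the control list, a ratio of 1.34. No label says whether an untargeted library set the background, and CHAF1A occupancy could not be told apart from access of the transposase. The lists hold no RNA or protein, so the knockdown itself was not checked. Of 10 cholangiocyte marker genes, 6 had a peak within 1 kb of a start in the CHAF1A siRNA list and 9 in the control list. KRT19 and SOX9 had one in both, KRT7, SPP1 and TFF3 in the control list only, and CFTR in neither. The counts were 2 and 2 of 6 hepatocyte markers, 2 and 1 of 6 immune markers and 1 and 1 of 6 fibroblast markers. Over all protein-coding genes the shares were 64.2% in the CHAF1A siRNA list and 61.2% in the control list. The differences were not tested.

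The promoters are shown first, because most of the genes share the ISRE and the peaks can be placed against it. RefSeq promoter sequences of GRCh38.p14 were matched for 32 of the 38 genes. Each line gives the 150 bases before an annotated start, 5′ to 3′ on the strand of the gene, with each ISRE core in capitals. A core on the other strand reads TTTC, any 2 bases, and TTTC. The first group had a peak at the start in both lists.
IFIT1, chr10:89392473-89392622, plus strand: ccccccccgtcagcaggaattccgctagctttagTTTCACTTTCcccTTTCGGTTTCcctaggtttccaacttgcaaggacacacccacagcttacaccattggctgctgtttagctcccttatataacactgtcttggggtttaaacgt
IFI6, chr1:27672193-27672342, minus strand: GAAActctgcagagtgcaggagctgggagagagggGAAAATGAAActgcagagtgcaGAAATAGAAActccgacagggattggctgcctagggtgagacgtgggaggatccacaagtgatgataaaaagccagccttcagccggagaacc
PLSCR1, chr3:146544608-146544757, minus strand: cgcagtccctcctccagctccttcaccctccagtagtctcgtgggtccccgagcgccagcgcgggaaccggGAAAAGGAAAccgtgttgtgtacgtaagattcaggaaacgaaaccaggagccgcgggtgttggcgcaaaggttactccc
ISG15, chr1:1013347-1013496, plus strand: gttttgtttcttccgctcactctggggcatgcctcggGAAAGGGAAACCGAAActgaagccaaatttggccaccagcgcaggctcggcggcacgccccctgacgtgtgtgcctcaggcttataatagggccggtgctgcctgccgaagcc
DDX60, chr4:168318753-168318902, minus strand: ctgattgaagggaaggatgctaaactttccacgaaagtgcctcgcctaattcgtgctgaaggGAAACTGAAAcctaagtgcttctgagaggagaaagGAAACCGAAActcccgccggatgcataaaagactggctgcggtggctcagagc
DDX60L, chr4:168480493-168480642, minus strand: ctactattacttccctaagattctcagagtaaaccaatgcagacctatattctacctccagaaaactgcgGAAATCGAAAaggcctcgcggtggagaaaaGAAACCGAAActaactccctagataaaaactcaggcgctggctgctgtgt
The second group had a start peak in the CHAF1A siRNA list only.
BST2, chr19:17405631-17405780, minus strand: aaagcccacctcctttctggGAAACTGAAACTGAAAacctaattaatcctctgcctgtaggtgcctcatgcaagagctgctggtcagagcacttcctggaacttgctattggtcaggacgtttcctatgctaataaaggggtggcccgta
OAS3, chr12:112938324-112938473, plus strand: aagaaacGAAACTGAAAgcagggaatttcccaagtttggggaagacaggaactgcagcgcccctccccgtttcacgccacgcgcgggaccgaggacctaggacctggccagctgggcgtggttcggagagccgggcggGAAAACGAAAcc
The third group carried the element and had no start peak in either list.
HERC5, chr4:88456969-88457118, plus strand: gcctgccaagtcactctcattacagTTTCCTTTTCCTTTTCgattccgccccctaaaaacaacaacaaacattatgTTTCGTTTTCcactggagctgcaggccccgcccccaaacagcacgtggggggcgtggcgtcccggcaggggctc
SAMD9, chr7:93117980-93118129, minus strand: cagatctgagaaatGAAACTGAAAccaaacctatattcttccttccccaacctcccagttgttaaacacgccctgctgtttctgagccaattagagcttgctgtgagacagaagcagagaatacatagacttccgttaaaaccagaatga
IFITM1, chr11:313890-314039, plus strand: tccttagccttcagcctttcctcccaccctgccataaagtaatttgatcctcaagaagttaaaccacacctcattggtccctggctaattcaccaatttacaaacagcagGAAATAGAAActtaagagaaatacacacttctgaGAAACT
The first 4 capitals of IFI6 are the end of a core that begins further upstream, and the last 6 capitals of IFITM1 are the beginning of a core that runs across the start. In ISG15, BST2 and HERC5 a pair of cores overlap. In IFIT1 the cores lie at positions −116 to −107 and −103 to −94 from the start, counting the base before the start as −1. In PLSCR1 the core lies at −79 to −70, and in DDX60L the cores lie at −80 to −71 and −50 to −41.

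The ISRE core was common in these promoters. The table held 44 promoters of the 32 genes, each 300 bases long, 250 before and 50 after a start. Of these, 30 (68.2%, exact binomial interval 52.4 to 81.4) held the core on either strand, against 3.17% of 22183 promoters of 15843 protein-coding genes. The interval treats promoters as independent, but those of PLSCR1, IFI27 and IFI44 overlap others of the same gene, so it is too narrow. Counted by gene, 25 of the 32 members held the core, against 659 of the 15843 genes. The longer form, in which CT follows the core, was in 20 member promoters (45.5%), against 0.289% of all promoters. The motif TATAAA was in 6 (13.6%), against 9.47%. Member promoters were also poorer in CpG. Their median ratio of observed to expected CpG was 0.37, against 0.74 over all promoters, and their median GC content was 52.3%, against 62.3%. A motif match is a description and not evidence of binding.

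Counted over the whole gene with 1 kb on each side, 31 of the 38 genes (81.6%, interval 65.7 to 92.3) had a peak in the CHAF1A siRNA list and 31 (81.6%, 65.7 to 92.3) in the control list. Over all protein-coding genes the shares were 81.1% in the CHAF1A siRNA list and 77.7% in the control list, so the members stood near the background. Both lists had a peak at 30 members, against 74.5% of all genes. MX2 was the member with peaks in the CHAF1A siRNA list only, against 6.54% of all genes. XAF1 was the member with a peak in the control list only, against 3.19%. IFI44, IFI44L, IFITM1, HERC5, SAMD9 and SAMD9L had none in either list, against 15.7% of all genes. The median length of the members, 23592 bp, was close to the 24115 bp of all genes.

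At the start (1 kb on each side of any annotated start), 26 members (68.4%, interval 51.3 to 82.5) had a peak in the CHAF1A siRNA list and 25 (65.8%, 48.6 to 80.4) in the control list. The background was 64.2% of all genes in the CHAF1A siRNA list and 61.2% in the control list. A start peak was in both lists at 23 members, against 56.7% of all genes. OAS3, BST2 and LGALS3BP had one in the CHAF1A siRNA list only, against 7.51% of all genes, and OAS2 and USP18 in the control list only, against 4.56%. The other 10 members had none in either list, against 31.3% of all genes. They were the 6 members without any peak and EPSTI1, IFI27, MX2 and XAF1, whose peaks lay inside the gene. Strand was taken from the promoter table, so for the 6 members absent from it (USP18, MX2, IFITM2, IFIT2, OASL and OAS2) both gene boundaries stood for the start. Among the 32 members in the table, 23 (71.9%) had a start peak in the CHAF1A siRNA list and 20 (62.5%) in the control list, against 66% and 63.1% of the 15843 genes in the table.

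**Figure D1:**
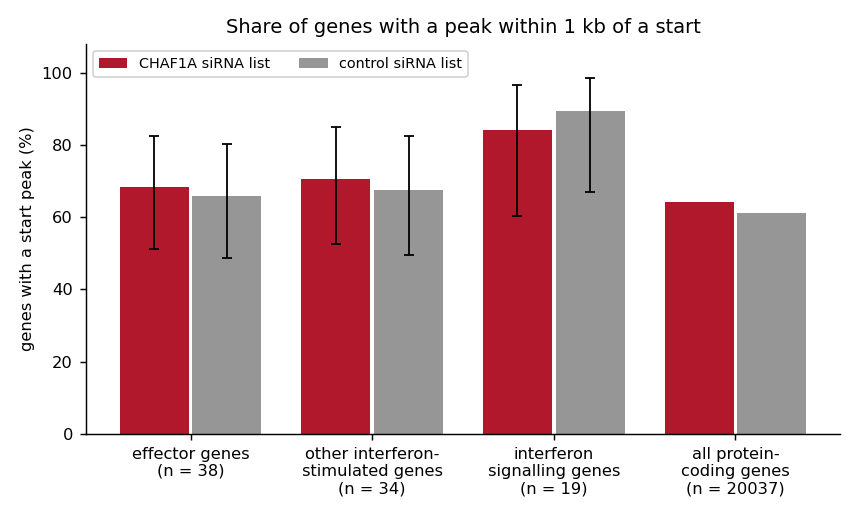
Percent of genes (vertical axis) with a peak within 1 kb of a start in the CHAF1A siRNA list (red) and the control siRNA list (grey), for the 38 effector genes, 34 other interferon-stimulated genes, 19 interferon signalling genes and all 20037 protein-coding genes. Error bars are 95% exact binomial intervals, which cover counting error only. The bars of the effector genes, 68.4% and 65.8%, stand close to those of all genes, 64.2% and 61.2%.

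The median start peak of the members was weaker than that of all genes with one. The median fold enrichment of the strongest start peak was 3.67 over 26 members in the CHAF1A siRNA list, against 4.53 over all 12860 genes with one. In the control list it was 4.55 over 25 members, against 5.53 over 12269 genes. The median −log10 q was 12.1 for the members in either list, against 24.8 for all genes in the CHAF1A siRNA list and 29.6 in the control list. The median width of the member peaks was 500 bp in the CHAF1A siRNA list and 494 bp in the control list, against 713 and 647 bp over all genes. Summits lay near the starts. For the members in the promoter table, the median distance was 139 bp in the CHAF1A siRNA list and 122.5 bp in the control list, against 162 and 134 bp over all genes.

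PLSCR1, a phospholipid scramblase of the plasma membrane, and IFI16, a sensor of DNA in the nucleus and cytoplasm, had the strongest start peaks. The PLSCR1 peak (chr3:146543957-146544940 with CHAF1A siRNA) had a fold enrichment of 11.5 and 200 reads (173 to 230) in the CHAF1A siRNA list, against 8.75 and 113 reads (93.1 to 136) in the control list. In the CHAF1A siRNA list 96.8% of genes with a start peak had a weaker one. The IFI16 peak (chr1:158999704-159000926 with CHAF1A siRNA) had a fold of 10.8 and 203 reads (176 to 233) in the CHAF1A siRNA list, against 11.5 and 149 reads (126 to 175) in the control list. The summit in both lists lay 867 bp inside the upstream boundary of the gene. In the CHAF1A siRNA list the peak reached over that boundary. In the control list it did not (chr1:159000525-159000926), and a separate, weaker peak with a fold of 4.59 and 56 reads covered the boundary. The RefSeq starts of the promoter table, at 159008991 and 159009907, had no peak within 1 kb. IFI16 also held the strongest internal peak found in 1 list alone, in the control list at chr1:159015582-159015748, with a fold of 8.98 and 67 reads. That peak was 167 bp wide, near the narrowest width of 166 bp in its list.

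By −log10 q the next start peaks in both lists were those of IFIT1, which binds viral RNA caps, and IFI6, a protein that blocks flavivirus replication. IFIT1 had a fold of 5.76 and 81 reads (64.3 to 101) in the CHAF1A siRNA list, against 7.67 and 79 reads (62.5 to 98.5) in the control list. IFI6 had a fold of 5.03 and 79 reads (62.5 to 98.5) in the CHAF1A siRNA list, against 6.90 and 78 reads (61.7 to 97.3) in the control list. The reads at both starts were nearly equal between the lists, over the higher background of the CHAF1A siRNA list. ISG15, a ubiquitin-like protein that is joined to other proteins, had the opposite order. Its start peak had a fold of 4.28 and 83 reads (66.1 to 103) in the CHAF1A siRNA list, against 2.82 and 39 reads (27.7 to 53.3) in the control list.

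Among the other strong starts, HERC6, the ISG15 ligase in mouse, had a fold of 5.69 and 53 reads in the CHAF1A siRNA list, against 4.77 and 34 reads in the control list. DDX60, a relative of RNA helicases that takes part in sensing viral RNA, had 4.95 and 46 reads in the CHAF1A siRNA list, against 6.13 and 44 reads in the control list. Its neighbour and close relative DDX60L had 3.93 and 38 reads in the CHAF1A siRNA list, against 6.00 and 60 reads in the control list. IFI35, a binding partner of NMI, had more reads and a lower fold. Its start had 3.05 and 101 reads in the CHAF1A siRNA list, against 3.99 and 91 reads in the control list.

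The remaining members with a start peak in both lists had folds from 2.83 (IFIT2) to 5.57 (OAS1) in the CHAF1A siRNA list, against 3.08 (IFIT2) to 4.99 (OAS1) in the control list. Among them, MX1, a dynamin-like GTPase that blocks influenza virus, had 3.93 in the CHAF1A siRNA list, against 4.79 in the control list. RSAD2 (viperin, which makes a chain-terminating nucleotide) and CMPK2 (a nucleotide kinase) start beside each other on opposite strands and shared their peaks. The strongest had a fold of 3.69 in the CHAF1A siRNA list and 4.60 in the control list. PARP9, an ADP-ribosyltransferase family member, and its partner DTX3L, a ubiquitin ligase, also start back to back and shared a peak, with 3.48 in the CHAF1A siRNA list and 4.09 in the control list. PARP12, an ADP-ribosyltransferase, had 3.52 in the CHAF1A siRNA list against 3.30 in the control list, and PARP14, of the same family, had 3.51 against 3.59.

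**Figure D2:**
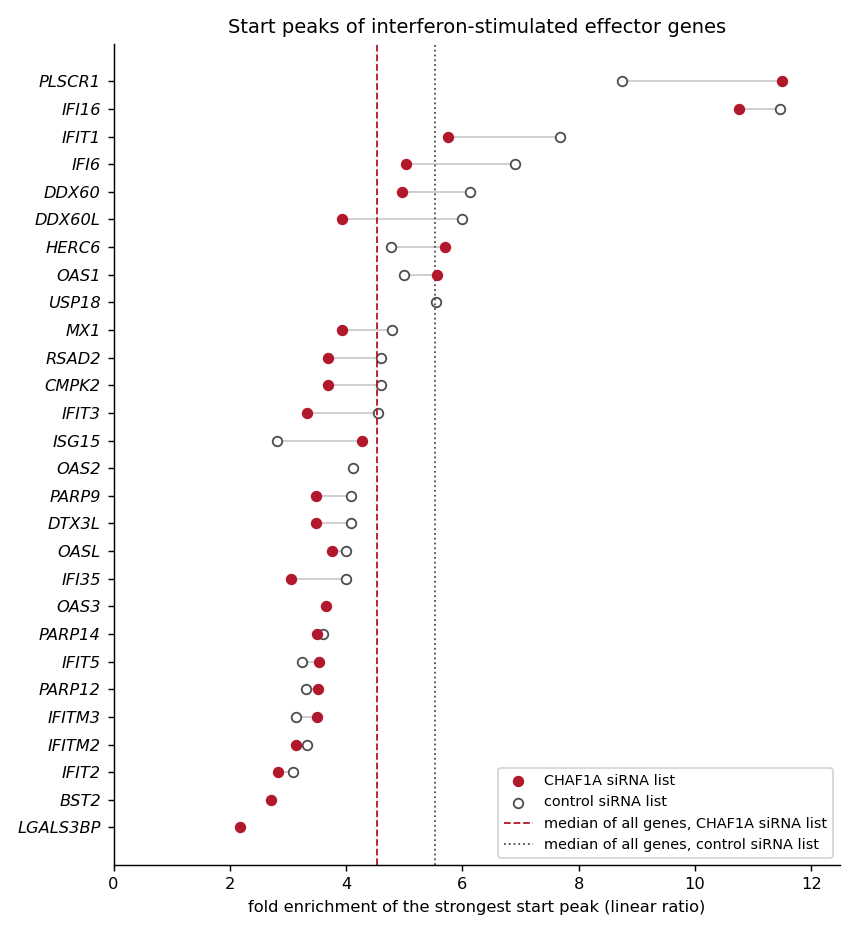
Fold enrichment, a linear ratio (horizontal axis), of the strongest start peak of each of the 28 members with one, in the CHAF1A siRNA list (filled red) and the control siRNA list (open grey); vertical lines mark the medians over all genes with a start peak in each list. PLSCR1 at 11.5 and IFI16 at 10.8 in the CHAF1A siRNA list stand apart from the other members, most of which lie left of the medians of 4.53 and 5.53.

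The IFIT cluster on chromosome 10 (89302046 to 89420997, 119 kb) holds IFIT2, IFIT3, IFIT1 and IFIT5. The first 3 lie inside the annotated span of LIPA (89213572 to 89414679), the gene of lysosomal acid lipase, and its end overlaps the start of IFIT5. The cluster held 13 peaks in the CHAF1A siRNA list and 10 in the control list, and 8 of each overlapped a peak of the other list by at least 1 bp. IFIT1B, which lies in the cluster but is not a member, had a peak inside it or within 1 kb in the CHAF1A siRNA list only. Each of the IFIT members had a start peak in both lists. Besides IFIT1, IFIT3 had a fold of 3.33 and 43 reads in the CHAF1A siRNA list, against 4.55 and 47 reads in the control list. IFIT5 had 3.53 and 41 reads in the CHAF1A siRNA list, against 3.25 and 30 reads in the control list, at a site that is also within 1 kb of an annotated LIPA start. IFIT2 was the weakest, with 2.83 and 32 reads in the CHAF1A siRNA list, against 3.08 and 29 reads in the control list. A shared peak also lay inside IFIT3, with 3.87 and 51 reads in the CHAF1A siRNA list, against 4.55 and 49 reads in the control list.

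The strongest site of the cluster in the control list belonged to none of its members. It lay between IFIT3 and IFIT1, inside LIPA, at chr10:89352041-89352559 in the CHAF1A siRNA list and chr10:89351555-89352573 in the control list. It had a fold of 4.56 and 77 reads in the CHAF1A siRNA list, against 8.65 and 194 reads in the control list. Scaled to the genome background of each list, the summit was 0.30 times as high in the CHAF1A siRNA list (counting interval 0.22 to 0.39). The IFIT1 start had a scaled ratio of 0.77 (0.55 to 1.06). A second site inside LIPA had 0.64 (0.44 to 0.92). At the start peaks of all genes with one in both lists, the median ratio was 0.84. The interval lay below 1 at 30.6% of those with a summit read number in both.

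The OAS cluster on chromosome 12 (112906962 to 113011723, 104.8 kb) holds OAS1, OAS3 and OAS2, which make oligoadenylates that activate RNase L when they meet double-stranded RNA. It held 11 peaks in the CHAF1A siRNA list, 5 of them shared, and 6 in the control list, 5 of them shared. The OAS1 start had a fold of 5.57 and 52 reads (38.8 to 68.2) in the CHAF1A siRNA list, against 4.99 and 39 reads (27.7 to 53.3) in the control list, and both summits lay at the same base, 112906888. OAS3 had a start peak in the CHAF1A siRNA list only (3.65, 38 reads), and OAS2 in the control list only (4.11, 30 reads). Inside OAS2 a broad peak at chr12:113006746-113007961 had a fold of 3.21 and 46 reads in the CHAF1A siRNA list, against 5.18 and 54 reads in the control list. OASL, a relative without synthetase activity that lies apart on the same chromosome, had 3.76 and 55 reads at its start in the CHAF1A siRNA list, against 4.00 and 40 reads in the control list.

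The IFITM genes are related copies on chromosome 11 (307816 to 320860, 13 kb) that encode membrane proteins which hinder the fusion of viruses. Where their sequences are alike, reads from one copy could have been placed on another. IFITM2 had a start peak with a fold of 3.13 and 68 reads in the CHAF1A siRNA list, against 3.33 and 53 reads in the control list. IFITM1, in the middle of the cluster, had none in either list. At IFITM3 the peak over the start (chr11:320441-321188 with CHAF1A siRNA) had 3.15 and 86 reads in the CHAF1A siRNA list, against 3.14 and 63 reads in the control list. A second peak further upstream had 3.50 and 98 reads in the CHAF1A siRNA list, against 3.07 and 62 reads in the control list. The peak just past the other end of IFITM3 had 3.99 and 119 reads in the CHAF1A siRNA list, against 4.00 and 86 reads in the control list. These 3 sites also lie inside or within 1 kb of the antisense gene IFITM3-AS1. The scaled ratios of the 4 shared IFITM sites lay between 0.96 and 1.18, and each counting interval held 1. The median ratio at the start peaks of all genes was 0.84.

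**Figure D3:**
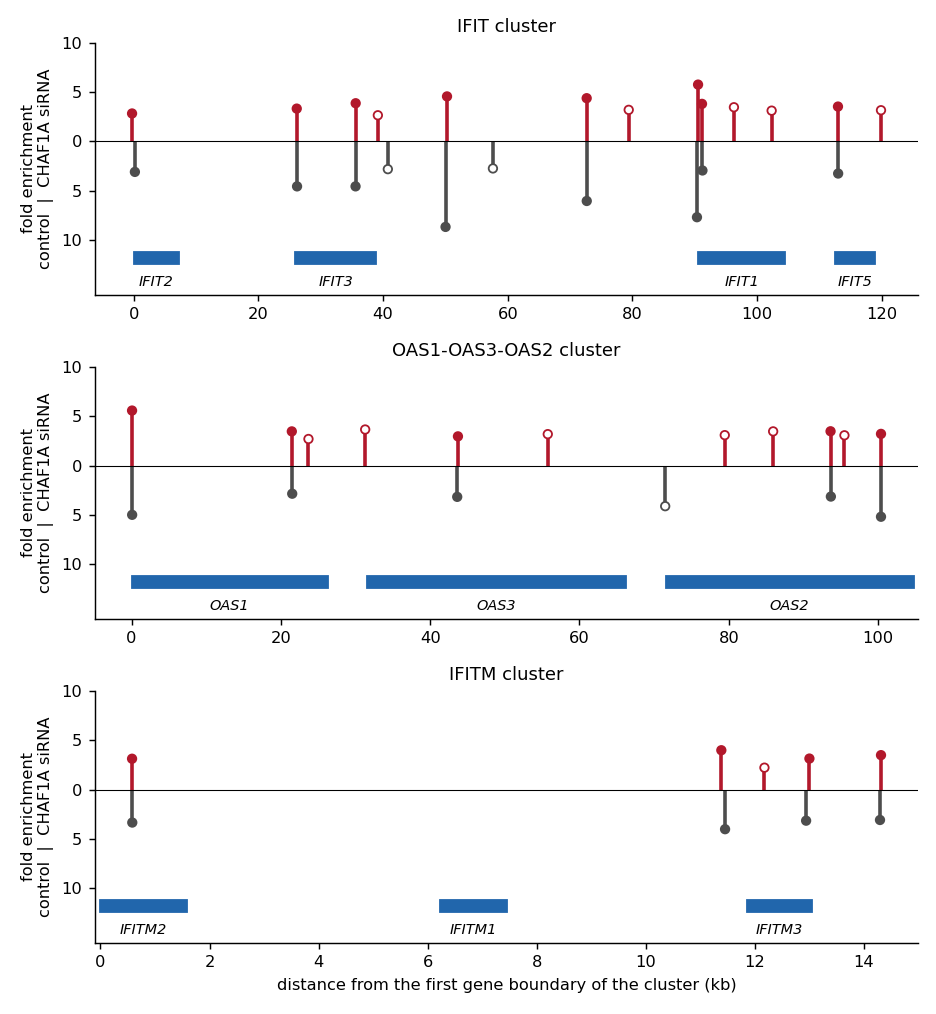
Midpoints of the peaks in the IFIT, OAS1-OAS3-OAS2 and IFITM clusters against distance from the first gene boundary (horizontal axis, kb). Stems rise to the fold enrichment in the CHAF1A siRNA list (red) and fall to that in the control siRNA list (grey). Their ends are filled where a peak of the other list overlaps and open where none does. Blue bars are the genes. The stem of 8.65 near 50 kb in the control list of the IFIT cluster lies between genes of the cluster, and no stem stands at IFITM1.

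Peaks were also counted across the spans of the other neighbouring members, with the sequence between the genes included. DDX60 and DDX60L (264.2 kb on chromosome 4) held 8 peaks in the CHAF1A siRNA list and 7 in the control list, 5 shared in each. Of the control peaks, 1 lay between the genes. Inside DDX60L a shared peak had 41 reads in the CHAF1A siRNA list and 63 in the control list, a scaled ratio of 0.49 (0.32 to 0.73), close to the ratio at its start. MX2 and MX1 held 3 peaks in the CHAF1A siRNA list and 1 in the control list, 1 shared in each. HERC6 and HERC5 held 1 peak in each list, at the HERC6 start. The pair SAMD9 and SAMD9L, which restrict poxviruses, held 1 peak in the CHAF1A siRNA list, between the genes, and none in the control list. IFI44L and IFI44 held none in either list. The span of PARP9, DTX3L and PARP14 held 5 peaks in the CHAF1A siRNA list and 4 in the control list, 3 shared in each. In each list only the start peak shared by PARP9 and DTX3L and the start peak of PARP14 lay at members. The rest lay elsewhere in the span.

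Some starts had a peak in 1 list only. USP18, the protease that removes ISG15 and damps the interferon receptor, had a start peak in the control list only, with a fold of 5.54 and 42 reads (30.3 to 56.8). Scaled to the background of the CHAF1A siRNA list this would be 56.2 reads, where 24 pass the threshold. Such scaling up passed 100% of the unshared control peaks at all genes, so it does not separate USP18, OAS2 or XAF1 from other sites. A further peak inside USP18 was in both lists, with 4.32 and 40 reads in the CHAF1A siRNA list, against 3.41 and 24 reads in the control list. The OAS2 start peak, in the control list only, would be 40.2 reads in the CHAF1A siRNA list, where 24 pass. XAF1, which binds an inhibitor of apoptosis, had an internal peak in the control list only, with a fold of 3.41 and 24 reads, or 32.1 reads in the CHAF1A siRNA list, where 23 pass.

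In the other direction, BST2 (tetherin), which holds budding virus at the cell surface, had a start peak in the CHAF1A siRNA list only. It had a fold of 2.72 and 45 reads (32.8 to 60.2), or 33.6 reads after scaling to the control list, where 29 pass. That peak also lay at annotated starts of BISPR and MVB12A. In the control list BST2 had a peak inside the gene, with a fold of 4.46 and 55 reads. The OAS3 start peak would be 28.4 reads in the control list, where 21 pass, and that of LGALS3BP, a secreted glycoprotein that binds galectin, 40.3 reads, where 39 pass. MX2, a GTPase that restricts HIV, had a pair of internal peaks in the CHAF1A siRNA list only, with 36 reads each and folds of 3.50 and 3.04.

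The peaks found in 1 list only were also set against the background of the other list. Of the member peaks that no peak of the other list overlapped, 5 at starts and 22 elsewhere were in the CHAF1A siRNA list, and 2 at starts and 8 elsewhere in the control list. Scaled to the background of the control list, the reads of 5 and 20 of the CHAF1A siRNA peaks were at or above the smallest number called there. Over all protein-coding genes this held for 91.2% of the unshared CHAF1A siRNA peaks at starts and 87.5% of those elsewhere, so the members stood near the background. Scaling up to the higher background of the CHAF1A siRNA list passed all 10 control peaks at members, as it did 100% of those at all genes at starts and 100% elsewhere, and so does not separate sites. Without replicates, the part of chance in which list called a site was not tested. EPSTI1 had internal peaks only, 4 in the CHAF1A siRNA list and 3 in the control list, and 1 of each was shared. IFI27, a small membrane protein of the same family as IFI6, had 2 internal peaks in the CHAF1A siRNA list and 1 in the control list.

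In all, 71 peaks lay at members in the CHAF1A siRNA list and 54 in the control list. With −log10 q of at least 10 the numbers were 30 in the CHAF1A siRNA list and 31 in the control list, so the order of the lists turned. Of the 71 and 54, 44 (62%) in the CHAF1A siRNA list and 44 (81.5%) in the control list overlapped a peak of the other list, against 49.8% and 64.4% of the peaks at all protein-coding genes. At starts, 24 of 29 (82.8%) in the CHAF1A siRNA list and 24 of 26 (92.3%) in the control list were shared, against 78.1% and 85.8% over all genes. Away from starts, 20 of 42 (47.6%) in the CHAF1A siRNA list and 20 of 28 (71.4%) in the control list were shared, against 40% and 55.1%. The difference from all genes was not tested.

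Between the lists, the fold enrichment of the start peak was compared at the 23 members with one in both. They share sites in 2 pairs (RSAD2 with CMPK2 and PARP9 with DTX3L), and at IFITM3 the strongest start peaks of the lists do not overlap, so its ratio sets different sites against each other. The median ratio of CHAF1A siRNA to control was 0.92, and it was under 1 at 16 of the 23 (69.6%). Over all 11356 such genes the median was 0.86, and the ratio was under 1 at 79.7%. The ratio of summit reads, each scaled to the genome background of its own list, was also taken. Its median was 0.87 over the members and 0.84 over all genes.

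3 members had a counting interval of that scaled ratio that left out 1. ISG15 was at 1.59 (counting interval 1.07 to 2.39), and 99.5% of genes had a lower ratio. PLSCR1 was at 1.32 (1.04 to 1.68), above 96.8% of genes. DDX60L was at 0.47 (0.31 to 0.72), above 2.06% of genes. At the other 20 members the counting interval held 1. The interval lay above 1 at 2 of the 23 members, against 2.8% of the 10801 genes with a start peak and a summit read number in both lists, and below 1 at 1 of the 23, against 30.6%. Set against the median ratio of all genes in place of 1, it lay above at 3 of the 23 members (ISG15, PLSCR1 and IFITM3), against 10.9% of genes, and below at DDX60L, against 13%. The intervals leave out the spread between samples.

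**Figure D4:**
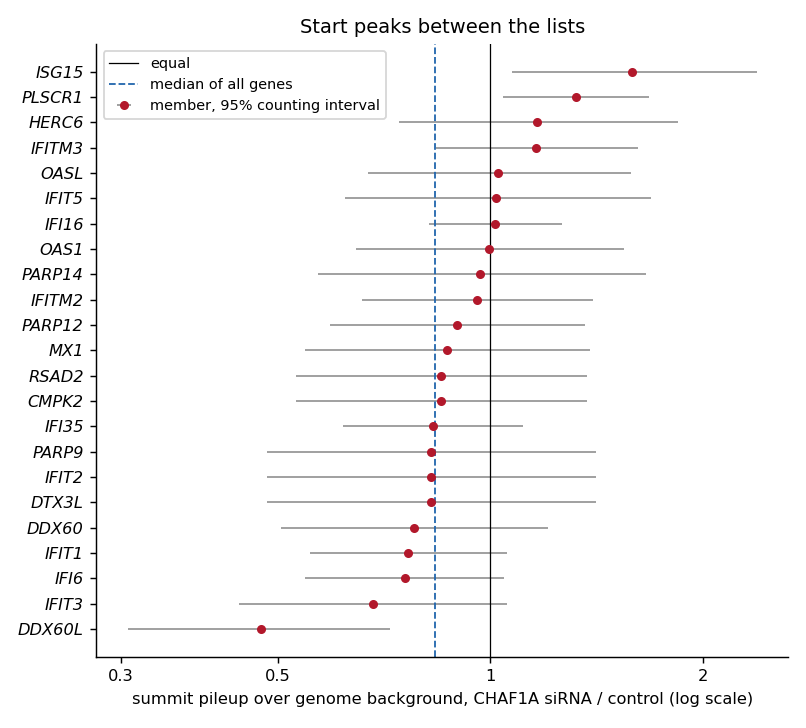
Ratio of summit reads over genome background, CHAF1A siRNA over control siRNA (horizontal axis, log scale), at the start peaks of the 23 members with one in both lists; bars are 95% counting intervals, which leave out the spread between samples. At IFITM3 the peaks of the lists do not overlap. ISG15 at 1.59 and PLSCR1 at 1.32 lie above 1 and DDX60L at 0.47 below it, while the dashed median of all genes is 0.84.

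Set against the sequences shown at the outset, a start peak was found with and without the exact ISRE core. Looser forms of the element were not searched, so a member without the core can still hold a similar sequence. The OAS1 promoter, for example, holds GAAACGAAA. Of the 25 members with the core in a promoter of the table, 18 had a start peak in the CHAF1A siRNA list and 15 in the control list, against 60.2% and 56.4% of the 659 genes with the core. The 7 of them with no start peak in either list were IFI27, IFI44, IFI44L, IFITM1, HERC5, SAMD9 and EPSTI1. Of the 7 members without the core, 5 had a start peak in each list (IFI35, IFI16, OAS1, HERC6 and CMPK2), and XAF1 and SAMD9L had none, against 66.3% and 63.4% of all genes without it. The strongest IFI16 peak lay within 1 kb of the gene boundary, away from the starts whose sequence was searched, so a core at that site was not checked. RSAD2, counted with the core, had its core and its peak at different starts. Counted by promoter, 18 of the 30 with the core (60%) had a peak within 1 kb of the start in the CHAF1A siRNA list and 15 (50%) in the control list. Of the 14 without it, 8 (57.1%) had one in each list. Over all promoters with the core, 48.6% had a peak within 1 kb of the start in the CHAF1A siRNA list and 45% in the control list. Over those without it the shares were 60.8% in the CHAF1A siRNA list and 57.9% in the control list, and over all promoters together 60.4% and 57.5%.

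The position of the summit varied against the element. At IFI6, IFIT1, OAS3, MX1, PARP12, PARP14 and PLSCR1, 7 of 17 members with a core and a peak at the same start, the strongest peak of the CHAF1A siRNA list covered a core. In the control list this held for 10 of 14, which were ISG15, IFI6, IFIT1, IFITM3, DDX60, PARP9, PARP12, PARP14, DTX3L and PLSCR1. At IFITM3 a CHAF1A siRNA peak also covered the cores, but a peak further upstream was the strongest and was the one counted. PARP9 and DTX3L share the same core and peak and were counted separately. The median distance from summit to the nearest core was 144.5 bp in the CHAF1A siRNA list and 75.5 bp in the control list. Over all genes with a core and a peak at the same start, the strongest peak covered a core at 49.2% of 323 in the CHAF1A siRNA list and 53.7% of 298 in the control list. The median distances over them were 231.5 bp and 220.5 bp. The difference from all genes was not tested. A peak that covers a core of 10 bases is wide enough to cover much of the promoter as well.

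**Figure D5:**
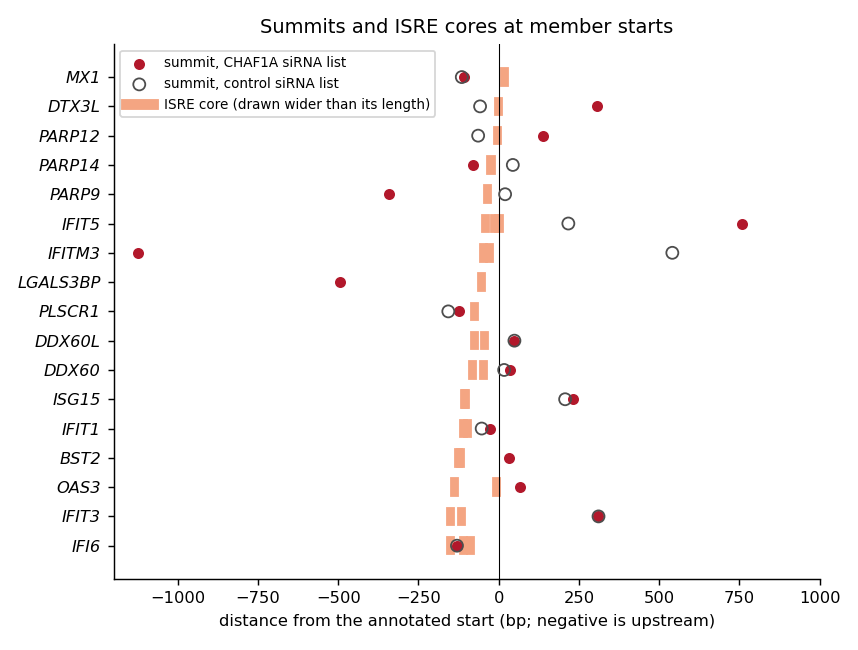
Distance of the peak summit from the annotated start (horizontal axis, bp; negative is upstream) in the CHAF1A siRNA list (filled red) and the control siRNA list (open grey), with the ISRE cores as orange bars drawn wider than their length, for the members with a core and a peak at the same start. At IFI6 the summits of both lists fall among the cores, at IFIT3 both lie downstream of the start, and the IFITM3 summit of the CHAF1A siRNA list lies furthest upstream.

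CpG-poor promoters held a peak in a lower share than CpG-rich ones, among the members and over all promoters. Promoters were called CpG-poor if they were among the 33.3% with the lowest CpG ratio. Of the 25 CpG-poor member promoters, 10 (40%) had a peak in the CHAF1A siRNA list and 8 (32%) in the control list. Over all such promoters the shares were 30.2% and 25%. Of the other 19 member promoters, 16 (84.2%) had a peak in the CHAF1A siRNA list and 15 (78.9%) in the control list, against 75.5% and 73.7% over all. Among all CpG-poor promoters, 27.4% of those with the core had a peak in the CHAF1A siRNA list and 23.3% in the control list, and of those without it 30.4% and 25.1%. CpG-poor members without a start peak include IFI44, IFI44L, IFITM1, SAMD9 and SAMD9L, while HERC5 and EPSTI1 are not CpG-poor and had none either.

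Start peaks were also counted at genes upstream in the pathway. The 19 interferon signalling genes were receptors, kinases, transcription factors and the SOCS inhibitors. In the CHAF1A siRNA list 16 (84.2%, interval 60.4 to 96.6) had a start peak, against 64.2% of all protein-coding genes. In the control list 17 did (89.5%, 66.9 to 98.7), against 61.2%. STAT2 had a fold of 5.50 in the CHAF1A siRNA list, against 8.82 in the control list, and IRF9 had 3.83 against 3.77. IFNGR1, a receptor chain for interferon gamma, had the strongest of these, with 8.11 in the CHAF1A siRNA list and 9.92 in the control list. IFNGR2 had one in the CHAF1A siRNA list only, IL10RB and IRF2 in the control list only, and IFNLR1 in neither. Of 34 other interferon-stimulated genes, 24 (70.6%, interval 52.5 to 84.9) had a start peak in the CHAF1A siRNA list. In the control list 23 did (67.6%, 49.5 to 82.6). These shares were near those of the effector genes, and their intervals held the shares of all genes. EIF2AK2, the kinase PKR, had the highest fold of the 34 in the CHAF1A siRNA list, 9.25, against 8.54 in the control list. TRIM5 had the highest in the control list, 10.1, against 6.70 in the CHAF1A siRNA list. RIGI, a sensor of viral RNA, had a start peak in the control list only, with a fold of 7.49. The difference between these groups of genes was not tested.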

How the data were processed

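CUT&Tag reads of 4 samples, 2 with CHAF1A siRNA and 2 with control siRNA, are represented by 2 narrowPeak lists, 1 per group. The names of the lists, si and NC, gave their groups and resemble the titles of the samples without equalling them, and whether samples were pooled is not stated. The submitters' processing notes name the build hg38, with peaks in the format of MACS2 2.1.2, besides Bowtie2 2.2.5, deepTools 3.4.3 and fastp 0.20.1. The fold enrichment deposited by the authors is a linear ratio, the deposited p and q are −log10 values, and the deposited score is the whole part of 10 times −log10 p and was not used.

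MACS2 computes fold as (pileup + 1)/(background + 1) and p as a Poisson tail, so reads at the summit were solved from both. This gave a solution for 99.2% of CHAF1A siRNA and 99.1% of control peaks, and 100.0% of these in each list were whole within 0.02 reads. On simulated data the solution was checked against known pileups. Peaks on other sequences (886 with CHAF1A siRNA and 868 with control siRNA) were left out. The most frequent background of a list was taken as its genome background, and read totals were not used here. Any overlap of the peak with the gene, extended by 1 kb, or with the window of 1 kb around a start was counted. Starts were those of the RefSeq promoter table together with the gene boundary on the strand side. Peaks are shared if they overlap by at least 1 bp. Coordinates count from 1.

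No test was run, because each group has 1 list. Counts and medians stand beside those of all protein-coding genes. The members, lists and tests were chosen with earlier results of these data known. Full values are given for the IFIT, IFITM and OAS clusters, the 8 members with the highest −log10 q at the start in either list, members with a peak in 1 list only and members with none, and the rest are summarised with some further values chosen after they were seen. The definition of a start, and its alternatives, were also chosen after seeing the data. Figures were drawn with matplotlib 3.10.9, and values computed in Python 3.11.15 with scipy 1.17.1, pandas 2.3.3 and numpy 2.4.6.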

Additional observations from a re-analysis of the deposited data

How the results depend on the processing

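Of 72 recomputed values under other settings, 61 stayed within 1.5 times the reported count or within the spread set for a value, and 11 moved beyond it. The order of the lists turned for peaks at members with −log10 q of at least 10 (30 with CHAF1A siRNA and 31 with control siRNA). It also turned for members with a start peak, 24 and 25 with equal numbers of peaks and 29 and 30 with a margin of 3 kb, against 26 and 25 as reported. With −log10 q of at least 10, members with a start peak were 17 in each list, in place of 26 and 25. The peaks at members are 71 and 54 as deposited, and shared peaks at that threshold were 22 and 23 (44 each). At a −log10 q threshold of 5, or with a margin of 0 kb, members with a peak in the CHAF1A siRNA list only were 2 in each case, and at 0 kb members with a start peak in the control list were 16 in place of 25. Members with a peak in the control list only were 2 with equal numbers of peaks per list and 0 with a margin of 3 kb. The longer ISRE was in 45.5% of member promoters. Other settings change which peaks are counted, and the causes of these 11 changes were not tested. With 1 list per group and no read totals, depth and the spread between samples were not measured, and some members with a peak in 1 list only rest on sites a few reads above the threshold, such as LGALS3BP. No paired analysis was possible because the lists do not keep the samples of a group apart and no test was run. For the same reason no sample could be left out in turn.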
